A study of Mus musculus with 12 samples.

Results

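The Hox genes of the mouse were followed through 12 RNA sequencing libraries of cultured adipocytes. The members are all genes whose symbol is Hox, a cluster letter from a to d and a number, which gave 39 genes out of 24888 gene entries in every library. The primary cultures were beige and white adipocytes grown from inguinal white fat preadipocytes of C57BL/6 background, labelled ATF7KO or WT. Beige cultures had received rosiglitazone, an agonist of the fat cell receptor PPARgamma, and white cultures had not. The remaining 2 groups were beige adipocytes made with rosiglitazone from C3H10t1/2, an established mesenchymal line from C3H mouse embryos, either overexpressing ATF7 or as control. There were 2 libraries in each of the 6 groups. The labels used here do not describe how ATF7 was deleted or overexpressed, whether the line was 1 clone, or whether the replicates came from separate cultures or animals, so the p-values rest on the variation among these samples alone, part or all of which may be technical.

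Hox genes encode homeodomain transcription factors that give cells of the embryo their position along the body axis. Within a cluster the genes lie in the order of their paralogue numbers, low numbers being used toward the head and high numbers toward the tail and the ends of the limbs. Fibroblasts and fat precursors of adult tissues keep a Hox pattern that reflects the site they came from, and HOX proteins bind DNA together with PBX and MEIS cofactors.

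Levels are FPKM, fragments scaled to transcript length and to the fragments mapped in the library, as the authors deposited them. This unit corrects for transcript length, so levels of different genes can be set side by side. Of the 39 genes, 26 reached 1 FPKM in 2 or more libraries. They were 9 of 11 Hoxa genes, 7 of 10 Hoxb genes, 8 of 9 Hoxc genes and 2 of 9 Hoxd genes. Among the primary libraries alone 23 genes passed this limit, among the C3H10t1/2 libraries alone 8 did, and 5 did so in both. For 18 genes that passed through the primary cultures no C3H10t1/2 library was at 1 FPKM, and for 3 that passed through C3H10t1/2 no primary library was. Entry of this kind favoured a difference between the sources, so these numbers are a description. It did not force a difference, since the levels of Hoxc13, which is among the 18, overlapped between the sources. Hoxb1, Hoxd1, Hoxd11, Hoxd12 and Hoxd13 were listed at 0 in all 12 libraries, 13 genes were listed at 0 in all 4 C3H10t1/2 libraries and 6 in all 8 primary libraries.

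By the files' coordinates on mm10, the Hoxa genes lie on chromosome 6, and the Hoxb genes spanned chr11:96194361-96368253, the Hoxc genes chr15:102921131-103036852 and the Hoxd genes chr2:74668310-74765142. Promoter windows of 200 bases ending at the base before the start of the gene were available from RefSeq on GRCm38.p6 for 22 Hox genes, and in 20 of them the RefSeq start was also the start in the files. The windows below belong to 5 genes whose levels mark the patterns described in the sections that follow. They are written 5′ to 3′ on the gene's strand, in lower case, with each CG dinucleotide in capitals. Hoxa5 (minus strand, chr6:52204588-52204787) and Hoxa7 (minus strand, chr6:52218574-52218773) are shown because they were higher in C3H10t1/2 cells. Hoxa9 (minus strand, chr6:52227371-52227570) is shown as the neighbour of Hoxa7 with the opposite pattern. Hoxd8 (plus strand, chr2:74704415-74704614) was listed at 0 in every C3H10t1/2 library, and Hoxc4 (plus strand, chr15:103034195-103034394) was lower in beige than in white cultures.
Hoxa5: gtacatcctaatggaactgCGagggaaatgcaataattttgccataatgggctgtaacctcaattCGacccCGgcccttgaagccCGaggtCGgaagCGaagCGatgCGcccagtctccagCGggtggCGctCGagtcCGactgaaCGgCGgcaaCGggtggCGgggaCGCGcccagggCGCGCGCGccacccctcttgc
Hoxa7: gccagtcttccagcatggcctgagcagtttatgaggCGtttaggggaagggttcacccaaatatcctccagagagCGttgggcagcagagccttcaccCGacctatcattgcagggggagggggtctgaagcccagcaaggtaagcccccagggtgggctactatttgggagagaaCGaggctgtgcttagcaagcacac
Hoxa9: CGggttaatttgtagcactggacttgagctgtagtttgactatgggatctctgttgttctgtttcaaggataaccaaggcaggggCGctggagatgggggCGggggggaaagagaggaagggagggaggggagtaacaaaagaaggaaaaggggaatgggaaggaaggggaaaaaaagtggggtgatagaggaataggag
Hoxd8: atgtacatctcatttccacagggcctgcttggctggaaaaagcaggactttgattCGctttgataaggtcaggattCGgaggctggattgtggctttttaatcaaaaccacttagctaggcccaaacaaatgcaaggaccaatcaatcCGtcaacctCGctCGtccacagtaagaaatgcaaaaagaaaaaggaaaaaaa
Hoxc4: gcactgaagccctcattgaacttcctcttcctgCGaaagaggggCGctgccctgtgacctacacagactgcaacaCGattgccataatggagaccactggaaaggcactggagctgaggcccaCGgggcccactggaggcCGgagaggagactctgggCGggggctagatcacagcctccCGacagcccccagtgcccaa

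These windows differed in CG content. The Hoxa5 window held 22 CG dinucleotides, against 4 in that of Hoxa7, 3 in that of Hoxa9, 5 in that of Hoxd8 and 7 in that of Hoxc4. The median of the 20 Hox windows was 7.5, with a range of 2 to 33, and the median of all 32851 windows in the same RefSeq table was 5, with quartiles at 2 and 13. The letters TGATNNAT, a spacing bound by PBX and HOX proteins together, were searched on both strands. They were present in 3 of the 20 Hox windows, those of Hoxa2, Hoxb1 and Hoxb8, or 15% of them, and in 5.85% of all windows. None of the 5 windows printed here held these letters.

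Before the Hox genes were compared, the labels and the cells were checked. Atf7 was at 7.26 and 7.94 FPKM in the ATF7KO beige libraries against 7.80 and 7.83 FPKM in the WT beige libraries, and at 6.88 and 7.73 FPKM in the ATF7KO white libraries against 9.10 and 7.10 FPKM in the WT white libraries, so the ATF7KO label is not seen in the level of this gene. In C3H10t1/2 cells Atf7 was at 41.2 and 39.1 FPKM in the ATF7-overexpressing libraries and at 8.52 and 9.09 FPKM in the control libraries. The summed level of 11 adipocyte markers was 11104 to 12492 FPKM in primary beige libraries, 3320 to 4959 FPKM in primary white libraries and 12196 to 13275 FPKM in C3H10t1/2 libraries. Correlations of log2(FPKM + 1) between the libraries of a group were 0.984 to 0.992. The number of fragments behind each value is unknown, and an exact 0 may be a failed estimate, so such a gene is given as listed at 0.

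The clearest feature of the Hox genes was which cluster was used in which cells. In the primary cultures transcripts came from all clusters, and the Hoxc cluster gave 45.1% to 57.9% of the summed Hox FPKM of a library. In C3H10t1/2 cells the Hoxa cluster gave 92.4% to 97.9% of it, against 18.3% to 29.2% in the primary libraries. The Hoxb share was 15.7% to 19.9% in primary libraries and 0.371% to 1.14% in C3H10t1/2 libraries. The Hoxd share was 4.76% to 9.87% in primary libraries and 0% to 0.0989% in C3H10t1/2 libraries. No cluster's share overlapped between the sources. The summed FPKM of all 39 genes was 46.3 to 57.5 in primary beige libraries, 71.4 to 84.1 in primary white libraries and 25.2 to 26.2 in C3H10t1/2 libraries.

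**Figure D1:**
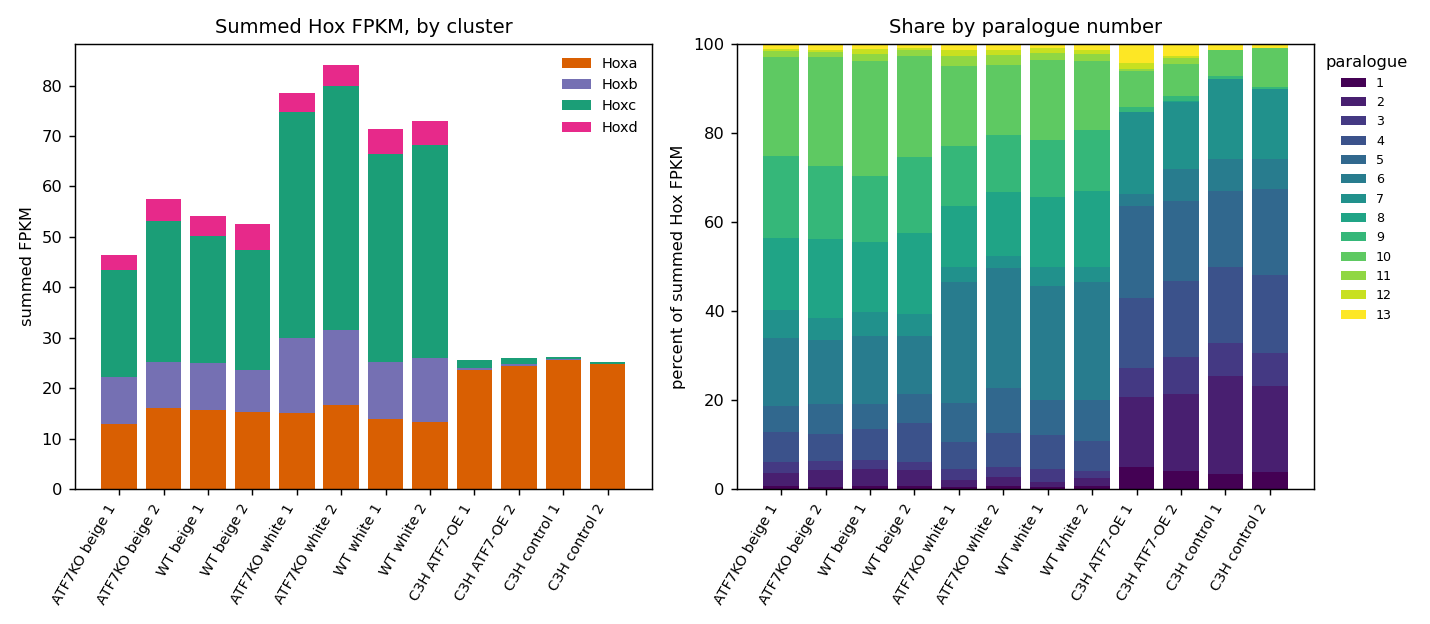
Summed FPKM of the Hox genes by cluster (left) and share of that sum by paralogue number in percent (right), 1 bar per library. In the primary libraries the Hoxc cluster is the largest block, at 45.1% to 57.9%, and in the C3H10t1/2 libraries (C3H; OE, overexpressing) the Hoxa cluster makes up 92.4% to 97.9%.

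Paralogue position also differed between the sources. The mean paralogue number, weighted by FPKM, was 7.17 to 7.63 in primary libraries and 4.74 to 5.35 in C3H10t1/2 libraries. Paralogues 1 to 3 made up 3.99% to 6.55% of the sum in primary libraries and 27.2% to 32.8% in C3H10t1/2 libraries. Paralogues 8 to 13 made up 47.6% to 61.5% in primary libraries and 7.88% to 15.3% in C3H10t1/2 libraries. The middle numbers were split. Paralogue 6 made up 13.05% to 27.1% in primary libraries and 2.70% to 7.36% in C3H10t1/2 libraries, whereas paralogues 4, 5 and 7 each took a smaller share in every primary library than in any C3H10t1/2 library. The same order was present within the Hoxa cluster, where the weighted paralogue number was 7.43 to 7.91 in primary libraries and 4.61 to 4.89 in C3H10t1/2 libraries. These sums are descriptions of the libraries and were not tested.

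**Figure D2:**
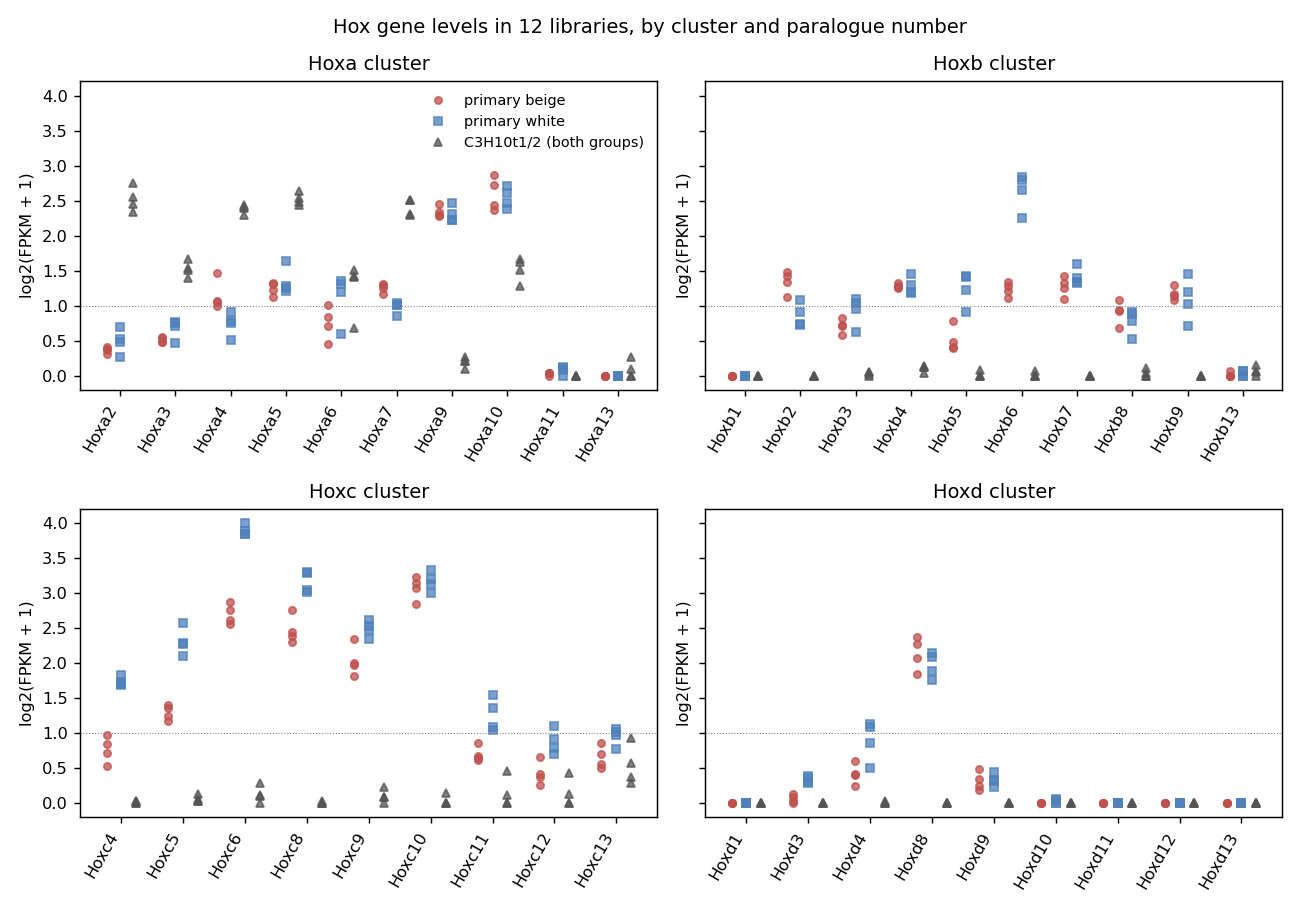
Level of the Hox genes as log2(FPKM + 1) in each of the 12 libraries, by cluster and in the order of paralogue numbers, with the 1 FPKM limit dotted. Within the Hoxa panel the C3H10t1/2 points lie above the primary points for Hoxa2 to Hoxa5 and Hoxa7 and below them for Hoxa9 and Hoxa10, while in the other panels the C3H10t1/2 points lie near the axis and are highest for Hoxc13.

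The source of the cells was tested gene by gene between WT beige and C3H10t1/2 control cultures, both with rosiglitazone and neither with a change of ATF7. In limma on log2(FPKM + 1), adjusted over all 11601 entries tested, 24 of the 26 Hox genes had an adjusted p under 0.05, 18 of them higher and 6 lower in WT beige cells. Of all entries tested 56.4% were called in the same comparison, 25.3% as higher and 31.1% as lower. Nothing is read from the Hox count against this share, because 18 of the 26 entered through the primary libraries and 3 through C3H10t1/2 alone. The genes that entered so are described below by levels and fold changes, without p-values. The 5 that reached 1 FPKM in both sources were Hoxa4, Hoxa5 and Hoxa7, which were called lower, Hoxa10, which was called higher, and Hoxa6, which was not called. Hoxc13 was not called either. With only the 4 libraries compared in the fit, 19 Hox genes were called, 13 higher and 6 lower. Strain, site of origin and culture history differ together with the source and cannot be told apart.

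The genes that were lower in the primary cells were all Hoxa genes with low or middle numbers. Hoxa2, which patterns the second pharyngeal arch and the hindbrain of the embryo, was at 0.308 and 0.329 FPKM in WT beige libraries against 5.77 and 4.89 FPKM in C3H10t1/2 control libraries, and over all 8 primary libraries it ran from 0.206 to 0.618 FPKM with a median of 0.319. Its mean over the 4 C3H10t1/2 libraries, 4.79 FPKM, was next to that of Hoxa5, 4.76 FPKM, and it stood at rank 28 of the 39 in primary cells. It was above Hoxa5 in both control libraries and below it in both overexpressing libraries. Its log2 fold change was -2.26 ± 0.11 (SE, limma). Hoxa5, a gene of the neck and upper trunk that is needed for the lung and the cervical skeleton, was at 1.34 and 1.498 FPKM in WT beige libraries and at 4.44 and 4.81 FPKM in control libraries (log2 fold change -1.22 ± 0.13). Hoxa4, another cervical gene, was at 1.07 and 1.77 FPKM in WT beige libraries and 4.41 and 4.34 FPKM in control libraries (-1.17 ± 0.14).

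Hoxa7, a thoracic gene, was at 1.39 and 1.45 FPKM in WT beige libraries and at 4.72 and 3.95 FPKM in control libraries, a log2 fold change of -1.14 ± 0.11. Hoxa3, which is needed for thymus and parathyroid, was at 0.400 and 0.395 FPKM in WT beige libraries and at 1.92 and 1.85 FPKM in control libraries (-1.04 ± 0.12). For both genes every primary library lay below every C3H10t1/2 library. Hoxa6 was not called, at 1.01 and 0.630 FPKM in WT beige libraries and 1.84 and 1.65 FPKM in control libraries, a log2 fold change of -0.60 with an interval of -1.17 to -0.03 (limma adjusted p = 0.068). Its primary libraries, at 0.362 to 1.55 FPKM, overlapped the C3H10t1/2 range through 1 overexpressing library at 0.605 FPKM, and the other C3H10t1/2 libraries lay above every primary library.

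The Hoxa cluster turned between its neighbours Hoxa7 and Hoxa9, whose annotated spans are 4523 bases apart. Hoxa9, a gene of the posterior trunk and the limbs, was at 4.06 and 4.45 FPKM in WT beige libraries and at 0.161 and 0.0691 FPKM in C3H10t1/2 control libraries. Its primary libraries ran from 3.68 to 4.56 FPKM and its C3H10t1/2 libraries from 0.0691 to 0.201 FPKM. The log2 fold change between WT beige and control was 2.24 ± 0.10. Hoxa10, a gene of the lumbar region, the thigh and the reproductive tract, was detected in both sources, at 5.61 and 4.41 FPKM in WT beige libraries and 1.44 and 2.19 FPKM in control libraries (1.10 ± 0.17, adjusted p = 0.00039). Hoxa10 was the Hoxa gene with the highest mean in primary cells and the highest Hox gene with a number above 7 in C3H10t1/2 cells. Beyond it, Hoxa11, a gene of the middle limb segment, did not exceed 0.0928 FPKM in any library, and Hoxa13, a gene of the hands, feet and hindgut, was listed at 0 in all 8 primary libraries and did not exceed 0.198 FPKM in C3H10t1/2 cells.

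The Hoxc genes carried the largest differences. Hoxc10, a gene of the lumbar region and the hindlimb, was at 8.38 and 7.48 FPKM in WT beige libraries. In C3H10t1/2 control libraries it was at 0.102 and 0 FPKM, a log2 fold change of 3.09 ± 0.12. Hoxc6, a thoracic gene, was at 5.77 and 4.91 FPKM in WT beige libraries and 0 and 0.0711 FPKM in control libraries (2.61 ± 0.11). Hoxc8, which patterns the lower thorax, was at 4.26 and 4.49 FPKM in WT beige libraries and 0 and 0.0225 FPKM in control libraries (2.41 ± 0.15). These 3 genes had the highest means of all Hox genes over the 8 primary libraries, in the order Hoxc6, Hoxc10 and Hoxc8, but that order rests on the white libraries. In each of the 4 beige libraries Hoxc10 lay above Hoxc6, and Hoxa10, with means of 5.25 FPKM in ATF7KO beige and 5.01 FPKM in WT beige, was above Hoxc8, with 4.85 FPKM in ATF7KO beige and 4.37 FPKM in WT beige. Over all the libraries the primary ranges were 4.91 to 15.1 FPKM for Hoxc6, 6.19 to 9.07 FPKM for Hoxc10 and 3.93 to 8.86 FPKM for Hoxc8, so these neighbours in the order overlapped in range.

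Hoxc9, the paralogue of Hoxa9, was at 2.52 and 2.95 FPKM in WT beige libraries and 0 and 0.0695 FPKM in control libraries (1.85 ± 0.12). Hoxc5, a cervical and upper thoracic gene, was at 1.37 and 1.65 FPKM in WT beige libraries and 0.0238 and 0.0250 FPKM in control libraries (1.29 ± 0.12). Hoxc4 and Hoxc11 were called as well, Hoxc11 being listed at 0 in both control libraries. The Hoxc gene with the highest level in C3H10t1/2 cells was the most distal one. Hoxc13, a gene of hair and nails, was at 0.424 to 1.09 FPKM in the primary libraries and 0.227 to 0.903 FPKM in the C3H10t1/2 libraries, and Hoxc12 at 0.204 to 1.14 FPKM in the primary libraries and 0 to 0.355 FPKM in the C3H10t1/2 libraries. Both pairs of ranges overlapped, and Hoxc12 did not reach the 1 FPKM limit in 2 libraries.

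The Hoxb genes were a primary cell feature at low level. All Hoxb genes from Hoxb2 to Hoxb9 lay above C3H10t1/2 in every primary library. In the primary libraries Hoxb6 ran from 1.16 to 6.15 FPKM, Hoxb7 from 1.13 to 2.01, Hoxb4 from 1.26 to 1.73, Hoxb2 from 0.652 to 1.80 and Hoxb9 from 0.642 to 1.74 FPKM. No Hoxb gene exceeded 0.109 FPKM in C3H10t1/2 cells, where Hoxb2, Hoxb7 and Hoxb9 were listed at 0 in all 4 libraries. Hoxb3 ran from 0.5 to 1.14 FPKM, Hoxb5 from 0.310 to 1.70 FPKM and Hoxb8 from 0.438 to 1.11 FPKM in the primary libraries. Hoxb13, the most distal gene of the cluster, did not exceed 0.0477 FPKM in primary and 0.109 FPKM in C3H10t1/2 libraries.

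The Hoxd cluster rested on 1 gene. Hoxd8, a trunk gene, was at 3.23 and 4.18 FPKM in WT beige libraries and 2.40 to 4.18 FPKM over all primary libraries, and was listed at 0 in the 4 C3H10t1/2 libraries. Hoxd4 ran from 0.183 to 1.19 FPKM in primary libraries and was at most 0.0250 FPKM in C3H10t1/2 libraries. Hoxd9 and Hoxd3 were listed at 0 in all C3H10t1/2 libraries and reached 0.402 and 0.309 FPKM in primary libraries. Hoxd10, a hindlimb gene, did not exceed 0.0398 FPKM anywhere. The genes at the distal end of the cluster that pattern fingers and toes were thus listed at or near 0 in both sources, whereas Hoxa10 and Hoxc10 were among the highest genes of the primary cultures.

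The beige and white groups and both ATF7 states were then put together. The mean of the 4 primary groups against the mean of the 2 C3H10t1/2 groups called 25 of the 26 Hox genes by limma, 19 higher and 6 lower in primary cells, where 73% of all entries were called, 37.3% higher and 35.7% lower. The gene that was not called was Hoxa6. This comparison shares its libraries with the one of WT beige and control cultures and is not independent of it. The same limit on entry into the test favoured most of its calls, so these counts are a description. As a description under the same limit, the 8 primary and 4 C3H10t1/2 libraries did not overlap for 24 of these 26 genes. The primary libraries were above for 18 and below for 6. Of all entries tested 37.8% did not overlap, 20.3% above and 17.5% below. Over all 39 genes 20 lay above and 6 below without overlap, Hoxa2 to Hoxa5 and Hoxa7 being among those below.

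Markers of other cells moved with the source too. The 13 macrophage markers summed to 33.9 to 849 FPKM in primary libraries and to 1.68 to 2.32 FPKM in C3H10t1/2 libraries. In the latter C1qa, C1qb and Aif1 were listed at 0. In WT beige over control 11 of the 13 were called higher, where 25.3% of all entries were called higher and 31.1% lower. Only 1 of the 13 passed the limit for testing among the C3H10t1/2 libraries alone, so this count is a description. The sum of 12 preadipocyte and stromal markers, most of it from the collagen genes Col1a1 and Col3a1, was 567 to 4512 FPKM in primary and 356 to 433 FPKM in C3H10t1/2 libraries. Of the 11 tested, 6 were called higher and 3 lower in WT beige than in control cells. Among the lower ones Pdgfra, a receptor of fat precursors, was at 8.21 and 7.94 FPKM in WT beige against 18.8 and 16.6 FPKM in control libraries. Their part in the Hox differences was not tested. The levels are those of whole cultures, so fewer cells that use a Hox gene and less of its RNA per cell cannot be told apart.

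Several unannotated or noncoding entries lie among the Hox genes, and the files hold 18 such entries inside the spans of the clusters. In the Hoxa cluster the noncoding entry Mira was at 1.25 to 2.30 FPKM in primary libraries and 6.69 to 8.24 FPKM in C3H10t1/2 libraries, and the antisense entry Hoxaas2 at 0.125 to 0.643 FPKM in primary and 1.48 to 1.95 FPKM in C3H10t1/2 libraries. Both were called lower in WT beige than in control cells, with log2 fold changes of -1.82 and -1.003 (limma). This is the side of Hoxa2 to Hoxa5 and Hoxa7. In all, 4 of the 18 entries were tested, 2 were not called, and 31.1% of all entries were called lower. Hoxaas2 reached 1 FPKM in C3H10t1/2 libraries alone, so its call is a description. Hoxaas2 overlaps the span of Hoxa3, whereas Mira lies between the spans of Hoxa3 and Hoxa7. The library kit keeps the strand, but whether counting used it is not stated. Reads of Hoxaas2 and of Hoxa3 where they overlap thus cannot be told apart. The span of Hoxa3 also encloses Hoxa4, Hoxa5 and Hoxa6, and that of Hoxd3 encloses Hoxd4. How reads in such shared stretches were assigned is not stated. The hairpins of the Hox cluster microRNAs, Mir10a, Mir10b, Mir196a-1, Mir196a-2, Mir196b and Mir615, were listed at 0 in all 12 libraries.

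Between beige and white cultures, which differ in rosiglitazone, the middle genes of the Hoxc cluster and Hoxb6 were lower in beige cells, and most genes numbered 9 or higher were not called. In ATF7KO-labelled cells 10 of the 23 Hox genes tested were called by limma, 1 higher and 9 lower in beige, which is 43.5% of them, while 61% of all entries were called, 26.6% higher and 34.3% lower. In WT cells 9 of 23 were called, 2 higher and 7 lower, or 39.1%, where 53.7% of all entries were called, 21.6% higher and 32.1% lower. The share of Hox genes called was below that of all entries in both. Nothing is read from this, because the Hox genes are few and low and log2(FPKM + 1) understates changes of low genes. The median log2 fold change over the Hox genes was -0.26 in ATF7KO-labelled and -0.18 in WT cells. Over all entries it was -0.06 in ATF7KO-labelled and -0.10 in WT cells. Of the Hox genes tested, Hoxc4, Hoxb5, Hoxc11, Hoxb3, Hoxc13 and Hoxd4 reached 1 FPKM in white libraries alone, and Hoxa4 in beige libraries alone. Among white libraries Hoxb2 reached it only in ATF7KO white replicate 2, and among beige libraries Hoxa6 only in WT beige replicate 1. Their entry into the test favoured a difference, so calls among them are a description.

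The split of this count into higher and lower depended on the scaling. After quantile normalization the calls were 5 higher and 6 lower in ATF7KO-labelled cells, with a Hox median of 0.08, and 4 higher and 6 lower in WT cells, with a Hox median of 0.13. With small RNA genes left out of the total they were 0 higher and 13 lower in ATF7KO-labelled cells, where the median of all entries moved to -0.24, and 2 higher and 9 lower in WT cells, where it moved to -0.22. Hoxb6, Hoxc4, Hoxc5 and Hoxc6 were called lower under every alternative in both genotypes. Without ATF7KO beige replicate 1 the ATF7KO calls were 3 higher and 5 lower, and without WT beige replicate 2 the WT calls were 0 higher and 6 lower.

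Middle genes of the Hoxc and Hoxb clusters made up the lower block. Hoxc6 was at 5.14 and 6.38 FPKM in ATF7KO beige against 13.8 and 15.1 FPKM in ATF7KO white libraries, and at 5.77 and 4.91 FPKM in WT beige against 13.4 and 13.5 FPKM in WT white libraries. Its log2 fold changes were -1.20 ± 0.12 in ATF7KO-labelled cells (adjusted p = 3.4e-05) and -1.19 ± 0.12 in WT cells (adjusted p = 5.1e-05). Every beige library lay below every white library. Hoxb6, its paralogue, was at 1.53 and 1.16 FPKM in ATF7KO beige against 5.92 and 6.15 FPKM in ATF7KO white libraries, and at 1.43 and 1.30 FPKM in WT beige against 3.77 and 5.27 FPKM in WT white libraries. Its log2 fold changes were -1.59 ± 0.14 in ATF7KO-labelled and -1.21 ± 0.14 in WT cells. In WT cells the values of Hoxb6 and Hoxc6 differed by less than their errors. Hoxa6, the third paralogue with this number, was called in ATF7KO-labelled cells alone, at 0.362 and 0.788 FPKM in ATF7KO beige against 1.55 and 1.47 FPKM in ATF7KO white libraries (-0.69 ± 0.21). That call was lost after quantile normalization and without ATF7KO beige replicate 1, ATF7KO white replicate 1 or ATF7KO white replicate 2.

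Hoxc4 and Hoxc5 lie next to each other at the anterior end of the Hoxc cluster. Hoxc4 was at 0.451 and 0.644 FPKM in ATF7KO beige against 2.27 and 2.55 FPKM in ATF7KO white libraries, and at 0.968 and 0.808 FPKM in WT beige against 2.21 and 2.33 FPKM in WT white libraries. Hoxc5 was at 1.26 and 1.57 FPKM in ATF7KO beige against 3.83 and 4.99 FPKM in ATF7KO white libraries, and at 1.37 and 1.65 FPKM in WT beige against 3.29 and 3.89 FPKM in WT white libraries. Their log2 fold changes were -1.14 ± 0.11 for Hoxc4 and -1.16 ± 0.14 for Hoxc5 in ATF7KO-labelled cells, and -0.79 ± 0.11 for Hoxc4 and -0.87 ± 0.14 for Hoxc5 in WT cells. Neither gene overlapped between beige and white. Of their Hoxb paralogues, Hoxb5 was called lower and Hoxb4 was not called. Hoxb5 was at 0.310 and 0.724 FPKM in ATF7KO beige against 1.70 and 1.33 FPKM in ATF7KO white libraries, and at 0.391 and 0.333 FPKM in WT beige against 0.877 and 1.67 FPKM in WT white libraries. Its log2 fold changes were -0.74 ± 0.19 in ATF7KO-labelled and -0.72 ± 0.19 in WT cells. The call was lost after quantile normalization in both genotypes, in ATF7KO-labelled cells also without ATF7KO beige replicate 1 or ATF7KO white replicate 1, and in WT cells also without WT beige replicate 2 or WT white replicate 2. Hoxb4 stood at 1.38 to 1.496 FPKM in beige and 1.26 to 1.73 FPKM in white libraries.

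Among the more posterior Hoxc genes the fold changes followed no order along the cluster. Hoxc8 was at 3.93 and 5.76 FPKM in ATF7KO beige against 7.25 and 8.86 FPKM in ATF7KO white libraries, and at 4.26 and 4.49 FPKM in WT beige against 7.09 and 8.79 FPKM in WT white libraries (-0.64 ± 0.17 in ATF7KO-labelled and -0.73 ± 0.17 in WT cells). Hoxc9 was at 3.02 and 4.09 FPKM in ATF7KO beige against 4.82 and 5.14 FPKM in ATF7KO white libraries, and at 2.52 and 2.95 FPKM in WT beige against 4.59 and 4.10 FPKM in WT white libraries (-0.40 ± 0.13 in ATF7KO-labelled and -0.52 ± 0.13 in WT cells). The call of Hoxc8 in ATF7KO-labelled cells was lost without ATF7KO beige replicate 1 or ATF7KO white replicate 2, and that of Hoxc9 in WT cells without WT beige replicate 1 or WT white replicate 1. Hoxc10 was not called, and its beige libraries, at 6.19 to 8.38 FPKM, overlapped its white libraries, at 7.004 to 9.07 FPKM. Hoxc11, a gene of the hindlimb, had a log2 fold change of -0.82 ± 0.12 in ATF7KO-labelled cells, with 0.535 and 0.571 FPKM in ATF7KO beige against 1.57 and 1.91 FPKM in ATF7KO white libraries. In WT cells it was at 0.824 and 0.596 FPKM in WT beige against 1.12 and 1.07 FPKM in WT white libraries and was not called (adjusted p = 0.059).

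A few genes went the other way. Hoxa4 was at 0.987 and 1.09 FPKM in ATF7KO beige against 0.723 and 0.884 FPKM in ATF7KO white libraries, where it was not called. It was at 1.07 and 1.77 FPKM in WT beige against 0.685 and 0.430 FPKM in WT white libraries (0.62 ± 0.16). Its call in WT cells is a description, because its entry into the test favoured a difference. Hoxb2, a hindbrain gene, was at 1.17 and 1.80 FPKM in ATF7KO beige against 0.652 and 1.13 FPKM in ATF7KO white libraries, where it was not called, and at 1.69 and 1.53 FPKM in WT beige against 0.669 and 0.877 FPKM in WT white libraries (0.56 ± 0.16). Hoxa7 was called in ATF7KO-labelled cells, at 1.25 and 1.47 FPKM in ATF7KO beige against 1.01 and 0.803 FPKM in ATF7KO white libraries (0.31 ± 0.11, adjusted p = 0.035). Each of these calls was lost when a single library was left out. Hoxa4 lost its call without WT beige replicate 2 or WT white replicate 2, and Hoxb2 lost its call without WT beige replicate 1, WT beige replicate 2 or WT white replicate 1. Hoxa7 lost its call without ATF7KO beige replicate 2, without ATF7KO white replicate 2 and with small RNA genes left out.

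The 4 beige and 4 white libraries did not overlap for 11 of the 23 Hox genes, 3 with beige above and 8 with beige below. Of all entries 59.7% did not overlap, 24.6% with beige above and 35.1% below. Among the 11 genes were Hoxc4, Hoxb5, Hoxc11, Hoxa4 and Hoxb2, whose entry into the test favoured a difference. Hoxa9, Hoxa10, Hoxb7, Hoxb9 and Hoxd8 were among the genes that were called in neither genotype, with log2 fold changes between -0.25 and 0.24. By cluster, the summed Hoxc level was 21.3 to 27.9 FPKM in beige and 41.3 to 48.4 FPKM in white libraries, and the Hoxb sum 8.30 to 9.34 FPKM in beige and 11.2 to 15.0 FPKM in white libraries. The Hoxa sums, 12.9 to 16.1 FPKM in beige and 13.4 to 16.6 FPKM in white libraries, overlapped, as did the Hoxd sums. Paralogues with the number 6 made up 13.05% to 15.2% of the Hox sum in beige and 25.8% to 27.1% in white libraries.

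**Figure D3:**
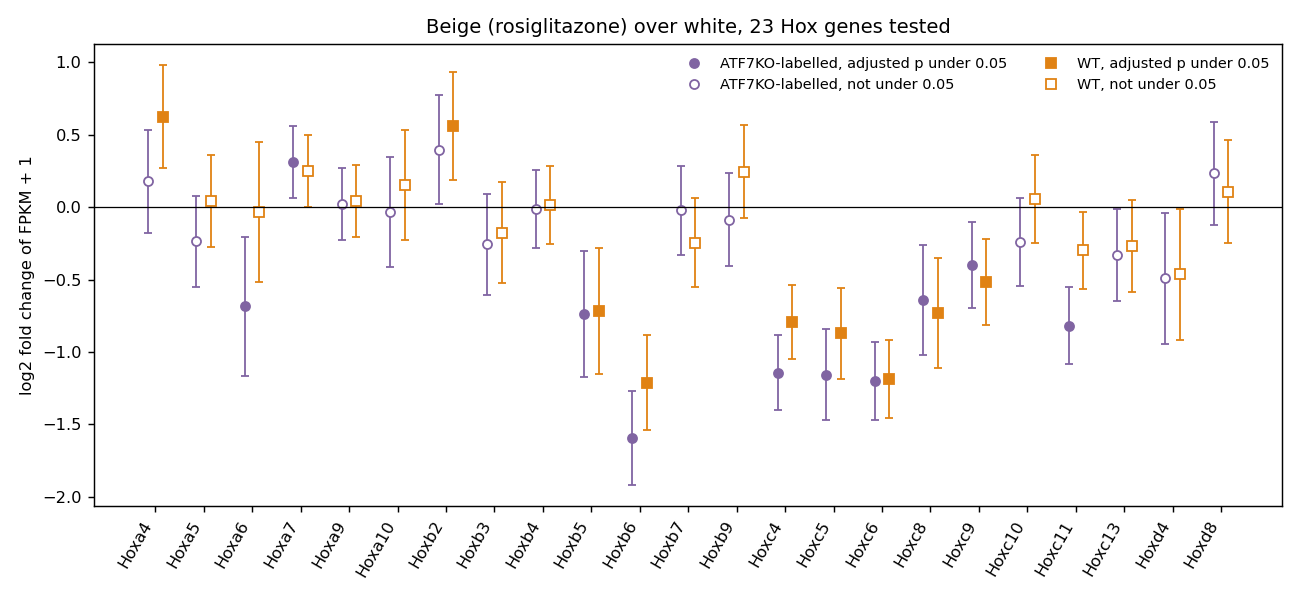
Log2 fold change of FPKM + 1, beige over white, for the 23 Hox genes tested in ATF7KO-labelled and WT cells, with 95% confidence intervals from limma and filled symbols at an adjusted p under 0.05. Hoxb6, at -1.59 and -1.21, and Hoxc4, Hoxc5 and Hoxc6 lie lowest, whereas Hoxa9, Hoxa10, Hoxc10 and Hoxd8 lie around 0.

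The makeup of the cultures differed between beige and white as well. All 11 preadipocyte and stromal markers tested were called lower in beige in both genotypes. Of all entries 34.3% in ATF7KO-labelled and 32.1% in WT cells were called lower. The median log2 fold changes of these markers were -2.71 in ATF7KO-labelled and -2.67 in WT cells. Their list summed to 567 to 832 FPKM in beige and 3488 to 4512 FPKM in white libraries. All 13 macrophage markers were lower in beige, with sums of 33.9 to 44.4 FPKM in beige and 547 to 849 FPKM in white libraries. The 8 endothelial markers summed to 1.19 to 1.37 FPKM in beige and 3.55 to 4.74 FPKM in white libraries. All 7 beige markers tested were called higher in beige in both genotypes, where 26.6% of all entries in ATF7KO-labelled and 21.6% in WT cells were. The 6 pericyte and smooth muscle markers summed to 40.4 to 66.4 FPKM in beige and 44.5 to 68.5 FPKM in white libraries, and the sum of 6 epithelial markers did not exceed 0.0460 FPKM in a primary library. The part of these cells in the Hox differences was not tested.

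No Hox gene passed the test between the groups that differ in their ATF7 label. Since the level of Atf7 was not lower in the ATF7KO-labelled libraries, a comparison of these labels is not shown to be one of cells with and without ATF7. Between ATF7KO beige and WT beige cultures 0 of 23 Hox genes were called by limma, where 0.151% of all entries were, 0.0531% higher and 0.0974% lower, and 1 gene, Hoxc4, had an unadjusted p under 0.05. The log2 fold changes ran from -0.29 for Hoxc4 to 0.28 for Hoxc9, the smallest adjusted p was 0.44, and the 95% confidence intervals of all 23 lay between -0.70 and 0.58. Between ATF7KO white and WT white cultures 0 of 23 were called, with 1.89% of all entries called, 1.27% higher and 0.62% lower, and 3 Hox genes, Hoxb9, Hoxb6 and Hoxc11, at an unadjusted p under 0.05. In this pair the values ran from -0.29 for Hoxd8 to 0.45 for Hoxb9, 18 of the 23 were above 0, and the smallest adjusted p was 0.13. The intervals reached 0.92, so changes of that size are not shown to be absent. Markers of other cells moved in the same pair. All 13 macrophage markers were above 0, with 5 called higher and a median of 0.74, and summed to 797 and 849 FPKM in ATF7KO white against 605 and 547 FPKM in WT white libraries. Ptprc, a leukocyte marker, was called higher, and of 11 adipocyte markers 3 were called lower and none was above 0. Their part in the Hox values was not tested.

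Hoxb9, a gene of the lower thorax, illustrates the spread. It was at 1.74 and 1.29 FPKM in ATF7KO white against 0.642 and 1.03 FPKM in WT white libraries, and at 1.47 and 1.25 FPKM in ATF7KO beige against 1.12 and 1.20 FPKM in WT beige libraries. The groups did not overlap in either pair, but the WT white replicates lay farther apart than the nearest libraries of the groups. For the difference between the genotypes in the beige over white change, 0 of 23 Hox genes were called where 0.292% of all entries were, 0.106% higher and 0.186% lower, 1 gene, Hoxc11, had an unadjusted p under 0.05, and the smallest adjusted p was 0.20. A Hox gene called in one genotype and not in the other was therefore not shown to differ between them.

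In C3H10t1/2 cells 8 Hox genes could be tested, all of the Hoxa cluster. Of these, 0 were called between ATF7-overexpressing and control cultures, where 1.49% of all entries were called, 0.431% higher and 1.06% lower. Hoxa2 alone had an unadjusted p under 0.05, at 4.04 and 4.46 FPKM in overexpressing against 5.77 and 4.89 FPKM in control libraries, a log2 fold change of -0.27 with an interval of -0.51 to -0.03 and a limma adjusted p of 0.25. Hoxa6 had a log2 fold change of -0.40 with an interval of -0.97 to 0.17, and Hoxa10 one of 0.09 with an interval of -0.26 to 0.44. At the distal end of the Hoxc cluster, below the limit for testing, Hoxc13 was at 0.903 and 0.486 FPKM in overexpressing and 0.292 and 0.227 FPKM in control libraries. Hoxc11 and Hoxc12 were listed at 0 in both control libraries, while the overexpressing libraries held 0.0908 and 0.374 FPKM of Hoxc11 and 0.355 and 0.0974 FPKM of Hoxc12. Atf7 itself lies on chromosome 15, and 295.7 kb separate it from the Hoxc cluster. A link between this position and the Hoxc values was not tested.

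**Figure D4:**
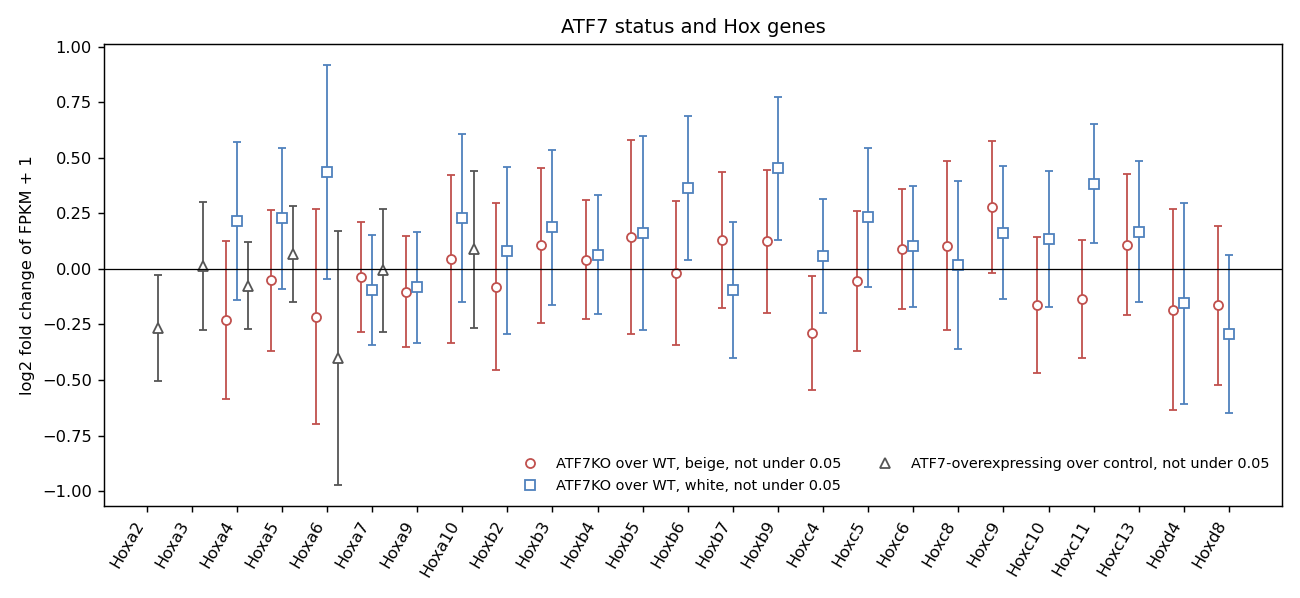
Log2 fold change of FPKM + 1 with 95% confidence intervals from limma for ATF7KO over WT in beige cultures, ATF7KO over WT in white cultures, and ATF7-overexpressing over control C3H10t1/2 cells. All symbols are open, since 0 Hox genes had an adjusted p under 0.05 in any of them, and the values lie between -0.40 and 0.45.

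The genes that work with or upstream of the Hox genes were described from lists, whose counts stand beside the share of all entries called, 56.4% in WT beige over C3H10t1/2 control, 61% in ATF7KO beige over white and 53.7% in WT beige over white. Of 9 HOX cofactors, 8 were tested. In ATF7KO beige over ATF7KO white 0 were higher and 4 lower, and the median log2 fold change was -0.52, while in WT beige over WT white 1 was higher and 5 were lower and the median was -0.47. Meis3 was at 1.37 and 0.989 FPKM in WT beige against 3.32 and 3.03 FPKM in WT white libraries. In WT beige over C3H10t1/2 control 1 cofactor was higher and 3 were lower. Meis2 was at 3.22 and 3.25 FPKM in WT beige against 8.001 and 8.39 FPKM in control libraries, and Pknox2 at 1.01 and 0.945 FPKM in WT beige against 0.2498 and 0.252 FPKM in control libraries.

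Polycomb and Trithorax proteins keep Hox clusters closed or open. Of the 23 tested, 5 were higher and 7 lower in WT beige than in C3H10t1/2 control cells (median log2 fold change 0.05), and 8 were higher and 4 lower in WT beige than in WT white cells (median -0.04). Both counts, 12 of 23 called, were near the share of all entries. Jarid2, a Polycomb partner, was higher in both comparisons, at 9.88 and 9.50 FPKM in WT beige libraries, 4.03 and 4.62 FPKM in WT white libraries and 3.64 and 3.22 FPKM in control libraries. Cbx6 was lower in both, at 3.18 and 3.76 FPKM in WT beige, 13.1 and 12.8 FPKM in WT white and 9.53 and 10.4 FPKM in control libraries. Retinoic acid switches on low numbered Hox genes in the embryo. All 12 genes of its pathway that were tested were called in beige over white cells in both genotypes, 4 higher and 8 lower, with medians of -1.13 in ATF7KO-labelled and -0.73 in WT cells. Aldh1a1, an enzyme that makes retinoic acid, was at 3.40 and 4.33 FPKM in WT beige against 25.7 and 27.9 FPKM in WT white libraries and 0.129 and 0.378 FPKM in C3H10t1/2 control libraries. Rarb, a retinoic acid receptor, was at 1.15 and 0.882 FPKM in WT beige against 0.265 and 0.299 FPKM in WT white libraries. The lists were not tested as sets.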

How the data were processed

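Directional, ribosomal RNA-depleted libraries were read for 36 bases from both ends, per the labels' protocols. The values are FPKM per gene entry that the authors computed before they deposited them, per the file headers, and the submitters' processing notes name mm10 (GRCm38) as the genome. Which annotation, read aligner and quantifier were used, and whether counting used strand, is not given in the sources used here, and depth is unknown. Groups came from the sample titles. Starts are counted from 0 in the deposited values, so 1 was added.

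Differences were tested with limma 3.58.1 in R 4.3.3 (eBayes with trend, two-sided, 1 coefficient per group, no replicate block) on log2(FPKM + 1). Entries needed 1 FPKM in 2 libraries of the fit, and p-values were adjusted by Benjamini-Hochberg over all entries tested, with calls at an adjusted p under 0.05. A fold change on this scale understates changes of low genes. The 12 libraries were fitted together for comparisons of source, the 8 primary libraries for those of rosiglitazone and genotype, and the 4 C3H10t1/2 libraries for overexpression. The code was tested on simulated data. No fold change is given where a gene was listed at 0 in the whole control group. A Hox gene and a cofactor are included in the counts and sums but are not reported here by name. The other members with a group mean of at least 1 FPKM are named, and in each comparison the called members with the largest changes, up to 8 in each direction, are given by library. The members, the lists and the tests were chosen with earlier results of these data known. Alternatives were the pseudocount (0.1), no filter, quantile normalization, median centring, leaving out small RNA genes, limma without trend, other sets of libraries in the fit, a replicate block, and each replicate left out.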

Additional observations from a re-analysis of the deposited data

How the results depend on the processing

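The counts of called Hox genes stayed within 1.5 times their value in all 107 alternative counts, and of the refits of named genes 361 kept the direction and the call, 22 lost the call and 0 changed sign. Across alternatives the Hox count ran from 19 to 26 for WT beige over C3H10t1/2 control (leaving out a replicate, 22), from 23 to 30 for the primary over the C3H10t1/2 groups (23 to 25), from 7 to 13 for ATF7KO beige over white (7 to 11) and from 6 to 11 for WT beige over white (6 to 7). It was 0 in every alternative of the 4 comparisons of ATF7 status, and these counts of 0 are among the 107. All 22 lost calls were in the comparisons of beige over white. Most named genes of WT beige over C3H10t1/2 control entered the test through 1 source, which favoured keeping their calls. Over all entries the counts for ATF7 status were less stable: 17 in beige cells (5 to 27), 213 in white cells (23 to 642), 33 for the difference of the genotypes (16 to 116) and 149 for overexpression (17 to 198). The lone sample left when a replicate is dropped is assumed to vary like the others.

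Median centring gave 2 higher and 8 lower Hox genes in ATF7KO beige over white and 3 higher and 7 lower in WT beige over white. The labels do not say that replicate numbers pair samples, and with 2 numbers per group the deviations of same-numbered libraries correlated at -0.129 to 0.124. With a replicate block the counts were 24 for WT beige over control, 25 for the primary over the C3H10t1/2 groups, 12 for ATF7KO beige over white, 9 for WT beige over white and 0 for each comparison of ATF7 status. Without small RNA genes 34 summed levels per group moved by more than the spread between replicates and 68 did not.

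Low Hox levels limit what could be seen: 13 of 39 genes were not tested, and their absence was not shown.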

Other observations

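Other transcription factors with a position in the embryo were compared between the sources. Of 40 such genes, 22 were tested by limma. In WT beige over C3H10t1/2 control 8 were called higher and 10 lower, with a median log2 fold change of -0.06. Of all entries 56.4% were called, 25.3% higher and 31.1% lower. Only 17 of these genes passed the limit for testing among the primary libraries alone, and 18 among the C3H10t1/2 libraries alone. The entry of some thus favoured a difference, so these counts are a description. Irx1, an Iroquois factor, was at 13.4 and 11.9 FPKM in WT beige and 1.64 and 1.69 FPKM in control libraries. Shox2, a factor of the proximal limb, was at 9.38 and 11.5 FPKM in WT beige and 1.23 and 1.51 FPKM in control libraries. Other genes of the list were higher in the cell line. Six2 was at 0.0355 and 0.0314 FPKM in WT beige against 3.56 and 3.24 FPKM in control libraries, and Foxc1 at 3.56 and 3.60 FPKM in WT beige against 16.7 and 16.6 FPKM in control libraries. Pax9, Zic2 and Msx1 were on the same side.

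Between beige and white cultures 17 of these genes were tested, with 0 higher and 11 lower in ATF7KO-labelled cells and 1 higher and 8 lower in WT cells, where 61% of all entries in ATF7KO-labelled and 53.7% in WT cells were called. Tbx15, a marker of subcutaneous fat precursors, was at 5.43 and 5.48 FPKM in ATF7KO beige against 12.5 and 14.6 FPKM in ATF7KO white libraries, and at 4.48 and 4.52 FPKM in WT beige against 11.5 and 12.3 FPKM in WT white libraries. Irx1 was not called in either genotype. Of 9 regulators of the posterior body, 2 were tested here, and Gdf11, which sets the position of the hindlimb, was lower in beige in both genotypes (log2 fold change -1.41 in ATF7KO-labelled and -0.67 in WT cells). Gdf11 reached 1 FPKM in white libraries alone, so its calls are a description. The other gene, Gmnn, was called higher in beige in WT cells and was not called in ATF7KO-labelled cells. Of the 17 positional and 2 posterior genes tested, 0 were called by limma between ATF7KO and WT cultures, where 0.151% of all entries in beige and 1.89% in white cells were called, so a count of 0 is near the background. Of the 17 positional genes 2 in beige and 4 in white cells had an unadjusted p under 0.05, and of the 2 posterior genes 0 in beige and 1 in white cells had one.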
